A study of Mus musculus with 6 samples.

Results

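Arnt2, Rph3al, Gkap1, Fstl1, Gria4, Phyh, Tcaf2, Apol6, Fam13a and Ppp1r16b were counted in every scrambled control library of B16 melanoma cells and were at or near 0 in every IFNγR1KO library. The 10 genes were selected on these counts. Each had at least 1 CPM (read counts scaled to a common library total) in every scrambled control library and 3 or fewer counts in every IFNγR1KO library. Of the 55335 genes in the count tables, 13124 had at least 1 CPM in every scrambled control library and 27 of them (0.206%) also met the limit in IFNγR1KO cells. The 10 described here are what is left of the 27 once 17 that belong to other gene families are set aside. Because the rule used the counts themselves, the difference between the groups at these 10 genes is a description and carries no test.

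RNA was sequenced from 3 cultures of control cells and 3 cultures of IFNγR1KO cells of B16, a mouse melanoma line, as poly(A)-selected libraries. The labels give the controls the genotype WT, and the study's methods describe them as scrambled control cells of the B16-BL6 subline that carry a guide against GFP, while the IFNγR1KO cells carry a guide against Ifngr1, the gene of the ligand-binding chain of the interferon-γ receptor. Both kinds of cells went through lentiviral delivery of Cas9 with a guide, puromycin selection and isolation of clones from single cells, and the cultures were seeded overnight in triplicate. The sources do not say whether the 3 IFNγR1KO cultures came from the same clone, so a difference shared by all 3 cannot be told apart from a trait of a clone, and p-values measure only the spread between these cultures.

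These genes are not known as a pathway. Arnt2 is a transcription factor of the bHLH-PAS family, which act as dimers in responses to hypoxia, foreign compounds and neuronal activity. Rph3al, Gkap1 and Ppp1r16b encode adaptors that tie a signalling enzyme or a small GTPase to a membrane, Gria4 and Tcaf2 act at ion channels, and Fstl1 is a secreted glycoprotein. Phyh is a peroxisomal enzyme of branched-chain fatty acid breakdown, Fam13a carries a GTPase-activating domain, and Apol6 belongs to the apolipoprotein L family, several of whose human members are induced by interferon. In cells of the melanocyte lineage Rab27a and its effectors move melanosomes, the pigment granules, so the Rab effector Rph3al has relatives there with a well-known role.

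Counts on genes numbered 9402640, 10579788 and 10196344 in the scrambled control libraries but 7122848, 7409479 and 6698956 in the IFNγR1KO libraries, so every IFNγR1KO library was shallower than every scrambled control library. CPM were computed from library totals scaled by the TMM method, and 1 count was worth 0.0966 to 0.109 CPM in scrambled control and 0.135 to 0.142 CPM in IFNγR1KO libraries. The limit of 3 counts therefore corresponded to 0.406 to 0.426 CPM in IFNγR1KO libraries. Ifngr1 (chr10:19591949-19610229 of GRCm38) had 154, 144 and 172 counts in scrambled control and 80, 85 and 82 in IFNγR1KO libraries. Its difference was -0.47 on the log2 scale, with a standard error of 0.16 and an adjusted p of 0.0729 from edgeR's quasi-likelihood test. Its transcript was thus still counted in every library labelled IFNγR1KO. These counts do not measure the receptor protein. The paper reported that in its IFNγR1KO cells IFN-γ raised neither phosphorylated JAK2 nor Irf1 RNA nor surface PD-L1. All 8 melanocyte markers examined, among them Mitf, Sox10, Pmel and Dct, were counted in all libraries, with a summed level of 31848 to 34781 CPM in scrambled control and 28070 to 32986 CPM in IFNγR1KO cells. The 5 leukocyte, 4 endothelial and 4 keratinocyte markers were at 3 counts or fewer in all 6 libraries.

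Promoter sequences are shown for 4 of the 10 genes: Phyh, which had 0 counts in all 3 IFNγR1KO libraries, Tcaf2 and Arnt2, which had the highest levels in scrambled control cells, and Rph3al, which had the lowest level there. The Rph3al window was among the poorest in CpG pairs of those found for the 10 genes. Each is the 250 bases before a start of transcription in RefSeq (GRCm38.p6), written 5′ to 3′ on the gene's strand, and capitals mark the letters of a match to any motif searched. The windows are chr2:4918746-4918995, plus strand for Phyh, chr6:42645042-42645291, minus strand for Tcaf2, chr7:84410039-84410288, minus strand for Arnt2, and chr11:75925892-75926141, minus strand for Rph3al. The Rph3al window lies wholly inside the gene as annotated in GENCODE (chr11:75830999-75938429), so it precedes an internal start. Which start these cells use was not tested.
Phyh: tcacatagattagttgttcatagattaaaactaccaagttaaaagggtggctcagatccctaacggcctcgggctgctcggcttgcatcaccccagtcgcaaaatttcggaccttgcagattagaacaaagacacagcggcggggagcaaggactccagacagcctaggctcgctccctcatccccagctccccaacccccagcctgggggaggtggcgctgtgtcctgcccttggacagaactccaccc
Tcaf2: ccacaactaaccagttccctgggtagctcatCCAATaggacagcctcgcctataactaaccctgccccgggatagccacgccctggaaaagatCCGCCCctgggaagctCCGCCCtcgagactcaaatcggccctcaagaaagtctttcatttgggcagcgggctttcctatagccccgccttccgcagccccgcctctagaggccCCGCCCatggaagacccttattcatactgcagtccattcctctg
Arnt2: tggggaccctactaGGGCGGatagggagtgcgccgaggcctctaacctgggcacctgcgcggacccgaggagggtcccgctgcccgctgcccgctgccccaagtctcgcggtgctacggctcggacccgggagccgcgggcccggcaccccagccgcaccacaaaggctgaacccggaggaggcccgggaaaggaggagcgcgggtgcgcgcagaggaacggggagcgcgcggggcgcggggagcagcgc
Rph3al: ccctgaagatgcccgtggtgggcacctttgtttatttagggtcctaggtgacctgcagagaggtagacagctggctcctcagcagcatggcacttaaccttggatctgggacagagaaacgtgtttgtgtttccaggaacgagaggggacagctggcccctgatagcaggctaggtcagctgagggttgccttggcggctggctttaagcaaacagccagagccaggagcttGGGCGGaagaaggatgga

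RefSeq promoter windows were available for 8 of the 10 genes, with 2 windows for Ppp1r16b. The 6 motifs were searched on both strands of the 9 windows and of 1 window for each of 27018 genes. The core of the interferon-stimulated response element, GAAANNGAA, was in 0 of the 9 and in 7.16% of all windows. The GC box, GGGCGG, was in 4 of the 9 windows, 3 times over in that of Tcaf2, and in 32.9% of all. The CCAAT box was in 3 of the 9, at Tcaf2, Fam13a and Gria4, and in 34.5% of all. The TATA box, TATAAA, the E-box, CACGTG, and the core of the M-box bound by Mitf, CATGTG, were in none of the 9 windows, against 13.0%, 6.05% and 12.2% of all windows. The number of CpG pairs ran from 5 at Rph3al, Fam13a and the upstream window of Ppp1r16b to 31 at Arnt2, with a median of 9 against 6 over all windows. No motif was common to all windows. The windows with 5 CpG pairs had more than 44.5% of all windows, so they lay near the middle, and that of Arnt2 had more than 95.1%. These matches are of letters alone, and binding was not measured.

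In scrambled control cells the 10 genes were weakly expressed. Their mean levels ran from 1.38 CPM at Rph3al to 3.75 CPM at Arnt2, and between 0.625% and 12.4% of the 13124 genes expressed by the same limit lay below them. They held 756 counts in total over the 3 scrambled control libraries and 29 over the 3 IFNγR1KO libraries. Per library the sum of the 10 was 218, 261 and 277 counts in scrambled control and 11, 13 and 5 in IFNγR1KO cells. Of the 30 values in IFNγR1KO libraries, 16 were 0 and 5 were at the limit of 3. All 10 genes passed edgeR's filter on low counts, as the rule on the scrambled control libraries made likely. Had each gene kept its mean scrambled control level, between 9.72 counts at Rph3al and 27.7 at Arnt2 would have been counted in an IFNγR1KO library.

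**Figure D1:**
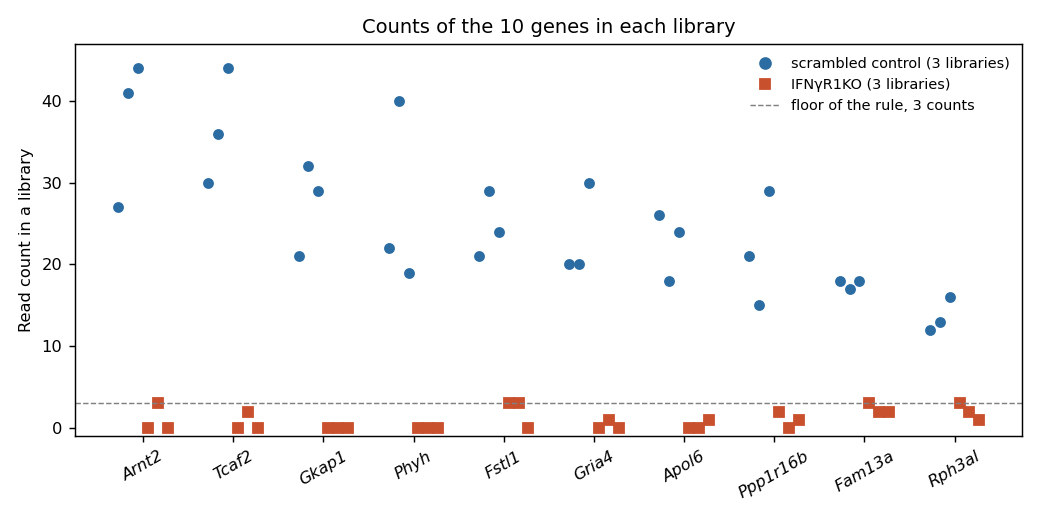
Read counts (vertical axis, linear) of the 10 genes (horizontal axis, ordered by mean level in scrambled control) in each of the 3 scrambled control libraries (circles) and the 3 IFNγR1KO libraries (squares). Circles lie between 12 and 44 counts, and squares at or below the dashed line at 3 counts, which is the limit that chose the genes.

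Arnt2 (ENSMUSG00000015709.9, chr7:84246278-84410176, minus strand) encodes a bHLH-PAS factor that pairs with hypoxia-inducible factors, SIM1 and NPAS4. It had 27, 41 and 44 counts in scrambled control 1, 2 and 3 and 0, 3 and 0 counts in IFNγR1KO 10, 11 and 12. All 3 counts in knockout cells thus came from library 11. In bulk RNA, fewer cells that express a gene and less RNA per cell cannot be told apart, here and for the other genes. The level in scrambled control was 3.75 ± 0.718 CPM (SD, n = 3). The pooled level was 27.1 times that in IFNγR1KO cells, with a 95% exact interval of 9.05 to 134. Like all intervals here, it covers counting error only, and not the spread between cultures. The genes were selected on these same counts, which the intervals do not allow for, so the ratios and intervals are descriptions and test nothing. Of the 15 bHLH-PAS genes listed as its relatives, 8 were tested and 0 passed an adjusted p of 0.05 in either direction. Arnt, the closest paralog and a partner of the same factors, had 358, 422 and 483 counts in scrambled control and 298, 286 and 339 in IFNγR1KO libraries, a log2 fold change of 0.01 with a standard error of 0.14 and an adjusted p of 0.968. Epas1, which encodes a hypoxia-inducible factor, had 35, 41 and 53 counts against 9, 15 and 22, with a log2 fold change of -1.02 and an adjusted p of 0.0508. Sim1, Sim2 and Npas4, which are best known from neurons, were at 1 count or fewer in each library.

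Rph3al (ENSMUSG00000020847.15, chr11:75830999-75938429, minus strand), also called Noc2, encodes an effector of Rab27 and Rab3 in regulated exocytosis. It had 12, 13 and 16 counts in scrambled control and 3, 2 and 1 counts in IFNγR1KO 10, 11 and 12. It was the lowest of the 10 in scrambled control, at 1.38 ± 0.143 CPM (SD, n = 3), and it was counted in every knockout library. The pooled ratio was 4.97 (95% exact interval 2.10 to 14.3), the smallest of the 10. Among its 20 relatives in granule transport, 9 were tested, and 1 was a DEG, meaning here an adjusted p below 0.05 together with a log2 fold change above 1 in size. That gene was Rab3a, a small GTPase of synaptic and secretory vesicles, with 114, 114 and 109 counts in scrambled control and 38, 41 and 31 in IFNγR1KO libraries (log2 fold change -1.16, standard error 0.20, edgeR adjusted p = 0.00228). Rab3a was lower in every knockout library than in every scrambled control library. Rab27a, Mlph and Myo5a, the melanosome transport complex, had log2 fold changes of 0.01, -0.13 and -0.34 and adjusted p-values of 0.963, 0.62 and 0.243. Rph3a, the paralog, had 18, 21 and 35 counts against 18, 14 and 22 (log2 fold change 0.01, adjusted p = 0.985).

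Gkap1 (ENSMUSG00000021552.7, chr13:58233346-58275699, minus strand) encodes an anchoring protein of the Golgi for cGMP-dependent protein kinase I. It had 21, 32 and 29 counts in scrambled control libraries and 0 in each IFNγR1KO library. The level in scrambled control was 2.76 ± 0.454 CPM (SD, n = 3). For a count of 0 the limit was taken as 3 counts over the group, or 0.139 CPM. The pooled scrambled control level of Gkap1 was 19.9 times that limit. This figure leaves out the counting error of the control, so it is not comparable with the intervals given for other genes. Of 12 genes of cGMP signalling, 5 were tested and none was a DEG, while Npr2, a receptor guanylyl cyclase, passed the adjusted p alone. Npr2 rose from 178, 184 and 220 counts to 252, 201 and 224 counts (log2 fold change 0.68, standard error 0.16, adjusted p = 0.0117), and without scrambled control 2 or without IFNγR1KO 10 its adjusted p was above the threshold. Prkg1, the kinase that Gkap1 binds, had 385, 392 and 561 counts in scrambled control and 281, 304 and 391 in IFNγR1KO cells, which gave a log2 fold change of 0.01, a standard error of 0.17 and an adjusted p of 0.977.

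Ppp1r16b (ENSMUSG00000037754.13, chr2:158665398-158766334, plus strand), also called TIMAP, encodes a membrane-bound regulatory subunit of protein phosphatase 1. It had 21, 15 and 29 counts in scrambled control and 2, 0 and 1 counts in IFNγR1KO 10, 11 and 12. Levels were 2.19 ± 0.659 CPM (SD, n = 3) in scrambled control, and the pooled ratio was 15.8 (95% exact interval 5.16 to 78.4). Of 11 related genes, 9 were tested and 2 were DEGs, both lower. Ppp1r12b, a myosin phosphatase subunit of the same MYPT family, had 129, 114 and 183 counts in scrambled control and 38, 50 and 52 in IFNγR1KO libraries (log2 fold change -1.14, standard error 0.22, adjusted p = 0.00437). Ppp1r14c, an inhibitor of protein phosphatase 1, had 60, 84 and 80 counts against 27, 28 and 18 (log2 fold change -1.15, standard error 0.24, adjusted p = 0.00751), and 29.2% of its exonic bases are overlapped by exons of the opposite strand. Both came to a log2 fold change smaller in size than 1 when a library was left out, Ppp1r12b to -0.96 without scrambled control 3 and Ppp1r14c to -0.98 without IFNγR1KO 12. Ppp1r16a, the closest paralog, had 272, 314 and 354 counts against 185, 224 and 211, with a log2 fold change of -0.14 (adjusted p = 0.576), and the catalytic subunits Ppp1ca, Ppp1cb and Ppp1cc had log2 fold changes of 0.07, 0.24 and -0.19, with adjusted p-values from 0.339 to 0.846.

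Gria4 (ENSMUSG00000025892.16, chr9:4417896-4796234, minus strand) encodes the GluA4 subunit of AMPA receptors, glutamate-gated cation channels of neurons. It had 20, 20 and 30 counts in scrambled control and 0, 1 and 0 in IFNγR1KO 10, 11 and 12, so that the knockout count rested on 1 read pair. With 2.35 ± 0.481 CPM (SD, n = 3) in scrambled control, the pooled ratio was 50.9, with a 95% exact interval of 8.84 to 2039. Gria4 was the only AMPA receptor subunit counted, since Gria1, Gria2 and Gria3 had 0 counts in all 6 libraries. Of 28 glutamate receptor and AMPA receptor partner genes, 12 were at 0 in all libraries and 8 were tested. The 1 DEG was Cnih2, an AMPA receptor auxiliary protein, with 9, 6 and 6 counts in scrambled control and 10, 24 and 13 in IFNγR1KO libraries (log2 fold change 1.59, standard error 0.44, adjusted p = 0.0273). Its call depended on library 11 among others: without IFNγR1KO 11 the log2 fold change was 1.19 with an adjusted p of 0.173, and it was also lost without scrambled control 2 (0.111), without scrambled control 3 (0.0645) and in DESeq2 (0.0659).

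Tcaf2 (ENSMUSG00000029851.5, chr6:42623016-42645254, minus strand) encodes a factor that binds the cold-sensing channel TRPM8. It had 30, 36 and 44 counts in scrambled control and 0, 2 and 0 in IFNγR1KO 10, 11 and 12. The level in scrambled control was 3.70 ± 0.507 CPM (SD, n = 3), and the pooled ratio was 40.0 (95% exact interval 10.8 to 334). Its paralog Tcaf1, whose end lies 22.7 kb away, had 264, 299 and 344 counts in scrambled control and 203, 203 and 205 in IFNγR1KO libraries, a log2 fold change of -0.11 with a standard error of 0.14 and an adjusted p of 0.67. Tcaf3, the other paralog, had 1 count in all 6 libraries together. Of the 10 genes listed as TCAF paralogs and TRPM channels, 5 were tested and none passed the adjusted p. Trpm8 had 1 count in all, whereas Trpm1, the channel named for melastatin and highly expressed in pigment cells, had 4953 to 7060 counts in each library and a log2 fold change of 0.11 (adjusted p = 0.67).

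Fstl1 (ENSMUSG00000022816.11, chr16:37776873-37836514, plus strand) encodes a secreted glycoprotein of the follistatin and SPARC family that can dampen BMP signals. It had 21, 29 and 24 counts in scrambled control and 3, 3 and 0 counts in IFNγR1KO 10, 11 and 12. Levels were 2.49 ± 0.339 CPM (SD, n = 3) in scrambled control, and the pooled ratio was 8.97 (95% exact interval 3.93 to 25.2). Of 28 genes of the family and of BMP and activin signalling, 18 were tested, 1 was a DEG higher and none a DEG lower. The DEG was Id3, a transcriptional inhibitor that BMP receptors are known to induce, with 368, 430 and 323 counts in scrambled control and 897, 654 and 489 in IFNγR1KO libraries (log2 fold change 1.32, standard error 0.21, adjusted p = 0.00141). Id1 and Id2 had log2 fold changes of 0.40 and 0.28 and adjusted p-values of 0.369 and 0.269. Sparcl1, a matricellular relative, fell by 0.87 on the log2 scale (adjusted p = 0.00215), Sparc had a log2 fold change of 0.02 (adjusted p = 0.961), Fst had 0 counts throughout and Fstl3 between 1 and 7. Fstl1 is common in fibroblasts, and of 6 fibroblast markers Col3a1, Lum and Dcn were at 3 counts or fewer in all libraries, while the sum of the 6 ran from 57.0 to 75.4 CPM in scrambled control and from 129 to 133 CPM in IFNγR1KO cells, led by Col1a2. The sum thus moved with the groups in the direction opposite to Fstl1. Pdgfra, another of the 6, went the same way as Fstl1, with 38, 32 and 36 counts in scrambled control and 17, 13 and 15 in IFNγR1KO libraries (log2 fold change -0.77, adjusted p = 0.0866). The part of these markers in the result was not tested.

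Phyh (ENSMUSG00000026664.7, chr2:4919019-4938730, plus strand) encodes phytanoyl-CoA hydroxylase, which starts the peroxisomal α-oxidation of phytanic acid and is lost in Refsum disease. It had 22, 40 and 19 counts in scrambled control libraries and 0 in each IFNγR1KO library. It was the most variable of the 10 in scrambled control, at 2.73 ± 1.11 CPM (SD, n = 3), with library 2 the highest. Its pooled scrambled control level was 19.6 times the limit of 3 counts over the IFNγR1KO group, with the counting error of the control again left out. Per kilobase of annotated exon Phyh had the highest scrambled control level of the 10, at 1.44 CPM per kb, while Fam13a, with the longest exonic sequence, had the lowest at 0.171 CPM per kb. Of 25 genes of peroxisomal fatty acid oxidation and import, 20 were tested and 1 was a DEG. It was Phyhd1, a related dioxygenase, with 6, 2 and 1 counts in scrambled control and 21, 29 and 12 in IFNγR1KO libraries (log2 fold change 3.17, standard error 0.55, adjusted p = 0.00242). Phyh and Phyhd1 thus had their higher counts in opposite groups. Hacl1, the lyase of the following step of α-oxidation, had 20, 18 and 19 counts against 19, 17 and 14 (log2 fold change 0.27, adjusted p = 0.619), and Pex7, the import receptor of Phyh, had a log2 fold change of 0.27 (adjusted p = 0.46). Aldh3a2, an aldehyde dehydrogenase of lipid breakdown, passed the adjusted p with a log2 fold change of 0.60 (adjusted p = 0.0147), and Scp2, a peroxisomal thiolase and lipid carrier, with -0.47 (adjusted p = 0.0376). Aldh3a2 lost its call without scrambled control 1, and Scp2 without scrambled control 2 or 3 or IFNγR1KO 10 or 11.

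Fam13a (ENSMUSG00000037709.13, chr6:58932090-59024549, minus strand) encodes a protein with a GTPase-activating domain, known in human genetics for its association with lung function. It had 18, 17 and 18 counts in scrambled control and 3, 2 and 2 counts in IFNγR1KO 10, 11 and 12. With 1.79 ± 0.140 CPM (SD, n = 3) it was the least variable of the 10 in scrambled control, and it was counted in every knockout library. The pooled ratio was 5.51 (95% exact interval 2.49 to 14.4). Of 9 genes listed as its paralogs and as small GTPases, 8 were tested and none was a DEG. Fam13b, a paralog, rose from 311, 326 and 371 counts to 345, 367 and 343 counts in the shallower IFNγR1KO libraries (log2 fold change 0.53, standard error 0.13, adjusted p = 0.0169), and Fam13c had 22, 13 and 15 counts against 3, 13 and 16 (log2 fold change -0.19, adjusted p = 0.838). The call of Fam13b ended without scrambled control 2, without IFNγR1KO 10 or without IFNγR1KO 11.

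Apol6 (ENSMUSG00000033576.12, chr15:77044729-77057106, plus strand) encodes an intracellular apolipoprotein L. It had 26, 18 and 24 counts in scrambled control and 0, 0 and 1 count in IFNγR1KO 10, 11 and 12. The level in scrambled control was 2.31 ± 0.516 CPM (SD, n = 3), and the pooled ratio was 49.5, with a 95% exact interval of 8.58 to 1982. Of the 13 other genes listed for the family, 7 were at 0 in all libraries and 4 were tested. Apol9a, known as an interferon-induced gene, had 17, 19 and 19 counts in scrambled control and 6, 3 and 7 in IFNγR1KO libraries (log2 fold change -1.30, standard error 0.40, adjusted p = 0.0445), and its call was lost in DESeq2 (0.161) and without any library other than IFNγR1KO 12, with adjusted p-values from 0.086 to 0.212. Apol9b, close in sequence to Apol9a, had 18, 32 and 15 counts against 9, 7 and 3 (log2 fold change -1.30, adjusted p = 0.0744). Read pairs without a unique alignment were not counted on any gene, so pairs fitting both would be missing from both. Apol7d had the other sign, with 22, 30 and 37 counts against 36, 30 and 62 (log2 fold change 0.99, adjusted p = 0.0494), and lost its call in DESeq2, with DESeq2's scaling in edgeR, and without scrambled control 1 or 2 or IFNγR1KO 10 or 12. Apol7d is annotated as an antisense gene on chromosome 1, and 14.0% of its exonic bases are overlapped by exons of the opposite strand. Of the 4 tested genes, Apol9a, Apol9b and Apold1 (log2 fold change -0.20, edgeR adjusted p = 0.378) were below 0 and Apol7d was above. Of these only Apol9a was a DEG.

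Over the 10 lists together, 94 of 171 related genes were tested. Of these, 3 were DEGs higher and 4 DEGs lower in IFNγR1KO cells, against 3.25% and 1.96% of all 13642 genes tested, and 8 and 8 passed the adjusted p alone or with the fold, against 7.73% and 7.62%. The median log2 fold change of the 94 was -0.0078, and that of all genes tested was -0.0015. The relatives were thus spread on both sides of 0, with 46 above and 48 below, while the 10 genes themselves lay far below by their selection. No list held more than 2 DEGs. The 7 DEGs ranged from 5 to 7 as any 1 library was left out.

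**Figure D2:**
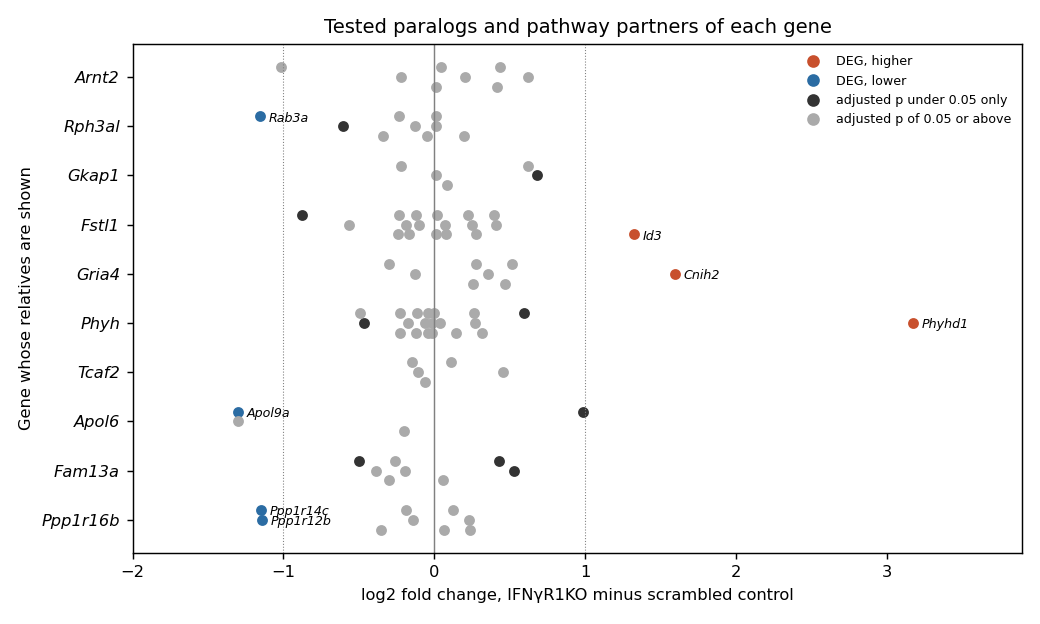
Log2 fold change (horizontal axis, IFNγR1KO minus scrambled control) of the 94 tested paralogs and pathway partners, grouped by the gene they relate to (vertical axis). Points are genes, coloured by call, and dotted lines mark a log2 fold change of -1 and 1. The 7 named points are DEGs, from Apol9a at -1.30 to Phyhd1 at 3.17, and most other points lie near 0.

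The 10 genes lie on 8 chromosomes, 2 each on chromosomes 2 and 6 and 1 each on chromosomes 7, 9, 11, 13, 15 and 16, with 4 on the plus strand and 6 on the minus strand. Other genes beside them were counted to describe their surroundings. Genes meeting the rule were left out before neighbours were picked. The 3 nearest of the remaining tested genes on each side gave 60 neighbours. Of these, 3 were DEGs higher and 2 were DEGs lower in IFNγR1KO cells, beside 3.25% and 1.96% of all genes tested, and 8 higher and 6 lower (23.3% of the 60 in all) passed the adjusted p, beside 7.73% and 7.62% of all genes tested. The median log2 fold change of the 60 was -0.08, with 24 above and 36 below 0. With the nearest gene on each side alone, 20 neighbours held 2 DEGs higher and 1 lower. Of these 20, 3 higher and 4 lower (35% in all) passed the adjusted p, and 14 were below 0 and 6 above. With the nearest 5, 100 neighbours held 4 and 3 DEGs, and 10 higher and 9 lower (19% in all) passed the adjusted p. The 5 DEGs among the 60 became 3 without scrambled control 1 and 3 without IFNγR1KO 11, and 6 at most. That none of the 60 met the rule was fixed in advance by leaving such genes out. For any neighbour with at least 1 CPM in every scrambled control library, more than 3 counts in at least 1 IFNγR1KO library followed from this. These counts therefore cannot show whether the low counts extended to a neighbour.

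The closest of these retained, tested neighbours were counted in every IFNγR1KO library, as leaving out untested genes and genes meeting the rule made likely. Fam83d, a protein of the mitotic spindle whose gene begins 1.76 kb beyond Ppp1r16b, had 352, 450 and 472 counts in scrambled control and 158, 175 and 187 in IFNγR1KO libraries (log2 fold change -0.83, standard error 0.14, adjusted p = 0.00249). Fam83d was thus lower in every knockout library, by less than the fold used for DEGs. Sephs1, a selenophosphate synthetase gene 8.46 kb from Phyh, had 726, 861 and 932 counts against 496, 503 and 526 (log2 fold change -0.26, adjusted p = 0.199). Herc3, 11.7 kb from Fam13a, had 169, 171 and 179 counts against 82, 87 and 112 (log2 fold change -0.43, adjusted p = 0.123), and Ubqln1, 17.7 kb from Gkap1, had 886, 1097 and 1323 counts against 691, 681 and 890 (log2 fold change -0.08, adjusted p = 0.796). Neither was called. Rbfox2, 21.9 kb from Apol6, Msantd4, 31.0 kb from Gria4, and Lrrc58, 31.9 kb from Fstl1, had log2 fold changes of -0.10, -0.10 and -0.49, with adjusted p-values of 0.735, 0.681 and 0.134. Of the remaining nearest neighbours, Abhd17c beside Arnt2 and Rflnb beside Rph3al passed the adjusted p at log2 fold changes of -0.61 (adjusted p = 0.0466) and -0.93 (adjusted p = 0.0336), and Tigd2 beside Fam13a at 0.61 (adjusted p = 0.0189). Each of these 3 calls was lost without IFNγR1KO 10 and also without IFNγR1KO 11, and each depended on at least 1 scrambled control library. Actr5 beside Ppp1r16b, Ywhae beside Rph3al, 2210016F16Rik beside Gkap1, Gm4600 beside Fstl1, Gm13192 beside Phyh, and 1110038F14Rik beside Apol6 were not called, with log2 fold changes between -0.28 and 0.33.

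The neighbours that were DEGs did not point one way. Gm2115, 119 kb from Arnt2, had 67, 65 and 84 counts in scrambled control and 27, 13 and 17 in IFNγR1KO libraries (log2 fold change -1.45, standard error 0.28, adjusted p = 0.00466). Apol9a, 347 kb from Apol6, is the other DEG lower. Casp4, the inflammatory caspase that senses cytosolic lipopolysaccharide and the nearest tested gene on the high-coordinate side of Gria4 at 513 kb, had 17, 16 and 19 counts against 51, 42 and 31 (log2 fold change 1.71, standard error 0.28, adjusted p = 0.00193). Both DEGs near Tcaf2 were higher in IFNγR1KO cells. Fam131b, 298 kb away, had 38, 39 and 57 counts against 72, 98 and 100 (log2 fold change 1.47, standard error 0.22, adjusted p = 0.00104). Epha1, a receptor tyrosine kinase gene 250 kb away, had 13, 27 and 31 counts against 31, 46 and 45 (log2 fold change 1.24, standard error 0.30, adjusted p = 0.0164), and it was no DEG without scrambled control 1 (log2 fold change 0.99), without scrambled control 2 (adjusted p = 0.0557) or without IFNγR1KO 11 (adjusted p = 0.0707). In a window of 500 kb on each side, DEGs higher in IFNγR1KO cells were 3 of the 6 tested genes near Tcaf2 and 2 of the 22 near Rph3al, and DEGs lower were 1 of the 9 near Arnt2 and 2 of the 21 near Apol6. Near Gkap1, Fstl1, Gria4, Phyh, Fam13a and Ppp1r16b there were 0 DEGs among 3 to 8 tested genes each. Over all genes tested the shares were 3.25% higher and 1.96% lower. The 4 window DEGs beyond those above, named after their values were seen, were Serpinf1 (1.59, adjusted p = 0.00013) and Mir22hg (1.24, adjusted p = 0.0241) near Rph3al, Gstk1 (1.16, adjusted p = 0.0142) near Tcaf2, and Tonsl (-1.11, adjusted p = 0.00218) near Apol6, each value a log2 fold change.

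**Figure D3:**
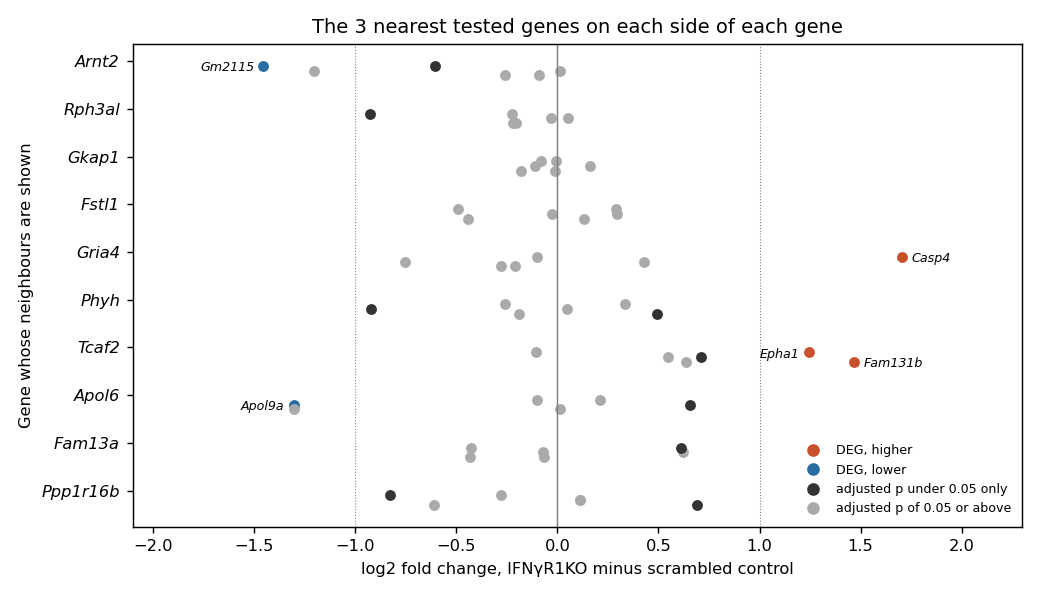
Log2 fold change (horizontal axis, IFNγR1KO minus scrambled control) of the 3 nearest tested genes on each side of each of the 10 genes (vertical axis), 60 points in all, coloured by call. Genes meeting the rule were left out before these were picked. The 5 named points are DEGs, Gm2115 and Apol9a lower and Casp4, Epha1 and Fam131b higher, and 55 of the 60 points are not DEGs.

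The 10 genes were long. Their median span was 76.1 kb, against 19.0 kb for the genes tested, from 12.4 kb at Apol6 to 378 kb at Gria4, and their median exonic length was 5344 bases against 3941. This is a description of genes chosen by their counts. Reads of other genes could enter the counts only over short stretches, since 2.78% of the exonic bases of Arnt2, 1.42% of those of Apol6, 0.743% of those of Fam13a and 0.641% of those of Gkap1 are overlapped by exons annotated on the opposite strand, and 0% for Rph3al, Fstl1, Gria4, Phyh, Tcaf2 and Ppp1r16b. Whether the authors counted by strand is not given in the sources used here.

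How far inside the rule each gene lay differed. Rph3al was nearest to both limits, with 1.29 CPM in its lowest scrambled control library and 3 counts in its highest IFNγR1KO library. Arnt2, Fstl1 and Fam13a also reached 3 counts, and Gkap1 and Phyh had 0. With a limit of 0 counts, Gkap1 and Phyh alone of the 10 would have been chosen. With a limit of 0.3 CPM in place of 3 counts, 6 would have been, without Arnt2, Rph3al, Fstl1 and Fam13a. A minimum of 2 CPM in every scrambled control library would have kept Arnt2, Gkap1, Fstl1 and Tcaf2. Among genes not described here, the nearest inside the level limit were Mfsd13a (10, 21 and 13 counts in scrambled control and 0 in each IFNγR1KO library), Tlr2 (13, 11 and 15 against 3, 2 and 3) and Fam19a5 (13, 11 and 12 against 1, 0 and 0), and the nearest outside it were Cyp46a1 (10, 10 and 11 against 0, 3 and 1), Gm572 (11, 10 and 15 against 2, 1 and 3) and Gm48860 (9, 19 and 11 against 0, 2 and 1). At the limit of 3 counts the nearest inside were Tlr2, Ddit4l (36, 41 and 33 against 3, 2 and 3) and Dlk2 (12, 22 and 16 against 3, 3 and 2), and the nearest outside were Tgtp1 (47, 39 and 36 against 1, 0 and 4), Mfng (17, 13 and 16 against 3, 1 and 4) and Smtnl2 (15, 11 and 17 against 2, 4 and 2). Genes on the other side of each limit thus looked much like those chosen.

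The same rule was also applied with the groups exchanged. At least 1 CPM in every IFNγR1KO library and 3 or fewer counts in every scrambled control library were found for 10 of 13130 genes (0.0762%), against 27 of 13124 (0.206%) in the direction that gave the 10 genes. The same count is a different level in the 2 groups, since 3 counts were 0.290 to 0.326 CPM in the deeper scrambled control libraries. With the limit moved to 0, 1, 2, 4 and 5 counts, 4, 11, 17, 31 and 46 genes were at or below it in IFNγR1KO cells, and 2, 3, 4, 14 and 21 in scrambled control. With a limit of 0.3 CPM in both directions the numbers were 17 and 4.

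**Figure D4:**
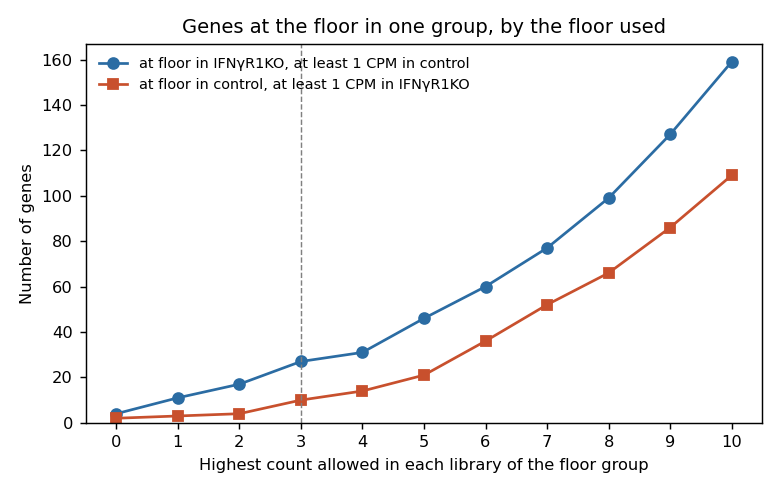
Number of genes (vertical axis) at or below a given count in every library of one group and at 1 CPM or more in every library of the other (horizontal axis, the count limit). Circles are genes low in IFNγR1KO and squares genes low in scrambled control, with 27 and 10 at the dashed line of 3 counts, and circles lie above squares at every limit plotted.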

How the data were processed

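RNA of 3 scrambled control and 3 IFNγR1KO cultures was compared. Read pairs were mapped to GRCm38 by the authors, who deposited unnormalized counts per gene for each library. The submitters' processing notes name STAR 2.7.5a, HTSeq 0.11.2 and DESeq2 1.34.0, and the annotation release is not given in the sources used here. Read pairs that HTSeq assigned to no feature, 46.9% to 47.7% of a library, stayed out of library sizes.

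Symbols and positions came from GENCODE release M21 (GRCm38), which holds 55154 of the 55335 identifiers when version numbers are ignored. In R 4.3.3, edgeR 4.0.16 filtered genes (filterByExpr, minimum count 10, minimum total 15), scaled libraries by TMM and applied its quasi-likelihood test to 13642 genes, adjusting p by Benjamini-Hochberg. The script was tested on simulated data. Members and gene lists were chosen with earlier results of these data known. Named neighbours and relatives followed a rule: the nearest tested gene on each side, the closest paralogs, up to 3 DEGs per list and direction, DEGs among neighbours, and the 3 genes nearest each limit. Markers, Epas1, Npr2, Sparcl1 and other relatives without a DEG call were named after their values were seen. Within groups, no libraries agreed within sampling noise. Some relatives are not reported here.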

Additional observations from a re-analysis of the deposited data

How the results depend on the processing

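The number of genes meeting the rule moved most with its limits: 27 became 4 with 0 counts, 46 with 5 or fewer counts, 17 with 0.3 CPM or less, 80 with at least 0.5 CPM in control and 11 with at least 2 CPM. Of the 10 genes, 2, 6 and 4 met the rule with 0 counts, with 0.3 CPM and with at least 2 CPM, and all 10 did under both other scalings. All 10 also met it with 5 or fewer counts, with at least 0.5 CPM and with any 1 library left out. That was fixed in advance, since these settings only loosen the rule that chose the genes. Leaving out 1 library at a time gave 32 to 38 genes meeting the rule, 565 to 886 DEGs in place of 710, and 3 to 6 DEGs among neighbours. Taking 1 neighbour on each side gave 3 DEGs, from 20 genes in place of 60. DESeq2 called 648 genes, 4 neighbours and 5 relatives, where edgeR called 710, 5 and 7. Without the filter on low counts edgeR called 861, 6 and 10. For Ifngr1 the adjusted p ran from 0.072 to 0.212 over all alternatives. Of the values of single named genes under an alternative, 906 kept their direction and side of the threshold, 54 fell short of it and 9 newly passed it. Another 57, of 26 genes, changed sign, none of them past the threshold before or after the change, from values of at most 0.21 to values of at most 0.24 in size on the log2 scale. No paired analysis was possible because the replicate labels 1, 2 and 3 and 10, 11 and 12 share no number. At 1 count per 0.135 to 0.142 CPM, a count of 0 in an IFNγR1KO library does not exclude a level of up to about 0.4 CPM.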
